A study of Mus musculus with 10 samples.

Results

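Myosins are motor proteins that move along actin filaments or pull filaments past each other, and 43 genes for their heavy and light chains were described here among the 20974 genes of the table. Members were the genes whose symbol begins with Myo or Myh (33 heavy chains) or Myl (10 light chains), followed by a number and at most 1 letter, so that *Mylk* and *Mylpf* were left out. The symbol alone decided membership. Transcripts had been measured by RNA-sequencing of polyadenylated RNA from 10 single mouse embryos of strain CD1 at embryonic day 7.5, 5 *Rreb1*+/+ and 5 *Rreb1*-/-, obtained from crosses between *Rreb1*+/- mice, with the parietal endoderm removed for genotyping. Per the study's methods, the mutant allele was a CRISPR deletion in exon 6 of *Rreb1*, a zinc finger transcription factor, carried in more than 1 line on a mixed background. The labels do not say which line each embryo carried. Values are normalized counts, meaning reads per gene divided by 1 size factor per embryo, and 1 read was worth 0.929 to 1.06 normalized counts. Depth was 33317560 to 35786876 counted reads per wild-type embryo and 31467767 to 35446574 per mutant. Of the mutants, only the 1 labelled replicate 5 lay within the wild-type range, and the others were below every wild-type embryo.

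As background, conventional (class II) myosins are built from a pair of heavy chains with essential and regulatory light chains. In nonmuscle cells they contract the actin cortex and the belts at cell junctions once the regulatory light chain is phosphorylated. Cardiac, skeletal and smooth muscle have heavy and light chains of their own. The unconventional classes link actin to membranes (class I), carry vesicles and organelles (classes V and VI) or extend filopodia and stereocilia (classes III, VII, X and XV). At gastrulation, contraction by nonmuscle myosin shapes epithelial cells and the primitive streak, and the first heart muscle genes are switched on in the anterior mesoderm.

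The mutants were compared with wild-type embryos with limma on log2(normalized count + 1), for the 15603 genes whose mean reached 15 in either genotype, and a gene was called where its adjusted p over all of them was under 0.05. Of the 43 members, 36 reached that minimum. *Myo16* and *Myo18b* reached it only in the mutants and *Myh11* only in wild type, so counts and medians over the tested members are descriptions. Under the minimum were *Myo1f*, *Myo1g*, *Myo3a*, *Myo3b*, *Myo7b*, *Myh14* and *Myl1*, whose genotype means lay between 3.03 and 14.7.

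Of the 36 tested members, 2 were higher in the mutants, *Myo16* and *Myo5a*, and 34 were not called. Across all genes tested, 3.11% were called higher. By limma, 0 members were called lower, where 1.15% of all genes were. At an unadjusted p under 0.05, 4 members were higher and 3 lower, where 9.74% of all genes were higher and 8.21% lower. EdgeR and DESeq2 each called 2 members higher and 0 lower, beside 3.24% and 1.08% of all genes by edgeR and 5.24% and 2.86% by DESeq2. Both called members also passed when the replicate number entered as a block, and 0 members were then called lower, where 4.59% of all genes were called higher and 2.28% lower. The mean log2 value was higher in the mutants for 19 tested members and lower for 17, and the log2 fold change was under 0.5 in size for 30 of them. What the replicate numbers mean is not given in the labels. Compared within each replicate number, the mutant was higher in all 5 for 4 members (*Myo16*, *Myo5a*, *Myl12b* and *Myl4*), where 12.1% of all genes were. It was lower in all 5 for 7 members (*Myh10*, *Myl12a*, *Myo18a*, *Myo19*, *Myo1c*, *Myo1d* and *Myo9b*), where 11.3% of all genes were. The median log2 fold change was 0.022 over the tested members and −0.016 over all genes tested, and the median of its size was 0.21 against 0.14.

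**Figure D1:**
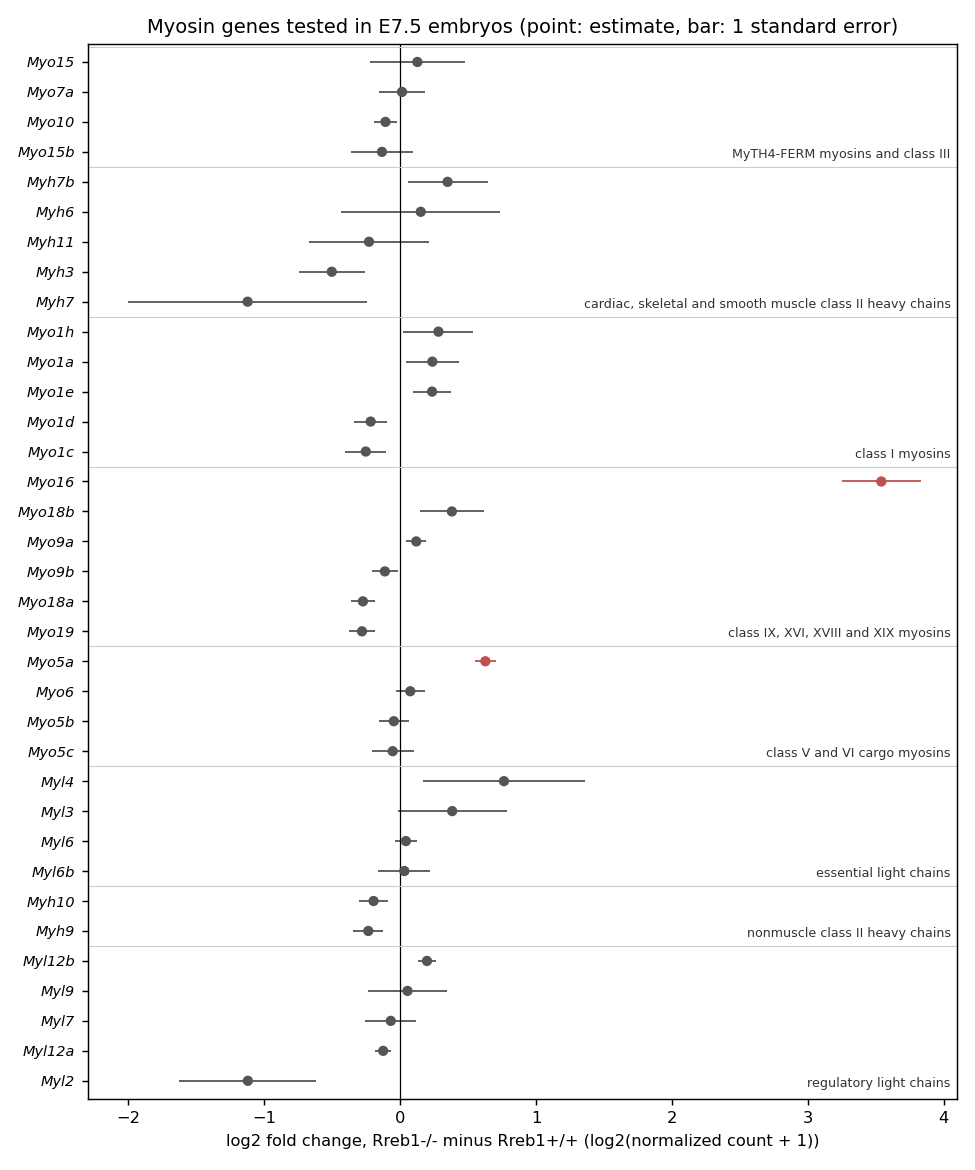
Log2 fold change of 35 of the 36 tested myosin genes, *Rreb1*-/- minus *Rreb1*+/+, on the log2(normalized count + 1) scale (x axis), grouped by role, with a point for the limma estimate and a bar of 1 standard error. The 2 red points, *Myo16* at 3.54 and *Myo5a* at 0.63, had an adjusted p under 0.05, and the grey points lie near 0 or have wide bars.

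*Myo16* had the largest log2 fold change among the tested members. It is an unconventional myosin with ankyrin repeats ahead of its motor domain, known from the developing brain, where it binds a phosphatase and is a partner of proteins that signal to the actin cytoskeleton. The gene (ENSMUSG00000039057) lies at chr8:10153911-10634742 on the plus strand of GRCm38. Normalized counts were 7.68, 5.02, 9.55, 4.80 and 12.2 in *Rreb1*+/+ replicates 2 to 6. In *Rreb1*-/- replicates 2 to 6 they were 113, 138, 90.3, 65.1 and 92.8. Every mutant was above every wild-type embryo, with 65.1 in the lowest mutant against 12.2 in the highest wild-type embryo. The means were 7.86 ± 3.14 and 99.9 ± 27.4 (SD, n = 5 each), a ratio of 12.7. The log2 fold change was 3.54 with a standard error of 0.29 (limma, adjusted p = 8.03e-05), and the exact two-sided permutation test gave p = 0.00794, the smallest that 5 against 5 embryos allow. The wild-type values rest on a handful of reads each.

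The 250 bases ahead of the annotated start of *Myo16* are shown because this gene differed most and RREB1 binds DNA. The RefSeq window is chr8:10153661-10153910 (GRCm38.p6, plus strand), with a GC content of 62%.
Myo16: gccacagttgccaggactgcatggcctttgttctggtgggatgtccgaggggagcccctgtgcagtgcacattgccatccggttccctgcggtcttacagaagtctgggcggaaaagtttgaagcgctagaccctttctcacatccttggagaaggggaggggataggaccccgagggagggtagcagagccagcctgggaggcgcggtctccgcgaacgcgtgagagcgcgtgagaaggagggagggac
The core letters of the RREB1 element, AAACCACC, were looked for on both strands of RefSeq windows of this length. They were found in 0 of 46 windows of the 37 members with an entry and in 0.868% of 32851 windows of all genes.

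*Myo5a* rose by a smaller factor from a level that was already high. Its product, myosin Va, walks along actin carrying melanosomes in pigment cells and membrane vesicles in neurons. The gene (ENSMUSG00000034593) lies at chr9:75071015-75223688 on the plus strand. Wild-type replicates 2 to 6 had 2564, 2736, 2489, 2929.9 and 2489 normalized counts. The mutants had 3819, 3858, 4752, 4239 and 3759. The genotypes did not overlap, with a gap between the highest wild-type and the lowest mutant value. The means were 2641 ± 190.2 and 4086 ± 417 (SD, n = 5 each), a ratio of 1.55. The log2 fold change was 0.63 with a standard error of 0.08 (limma, adjusted p = 0.000943; exact two-sided permutation p = 0.00794).

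Sex was unevenly spread over the genotypes. The summed counts of 4 Y-linked genes were 0 to 3.82 in wild type and 2.12 in mutant replicate 2, and 5849 to 9171 in mutant replicates 3 to 6. With the log2 of that sum as a covariate, which leaves the genotype difference to rest on mutant replicate 2, the log2 fold change of *Myo16* was 3.80 (SE 0.54, limma adjusted p = 0.0172). For *Myo5a* it was 0.52 (SE 0.14, limma adjusted p = 0.126), which ends the call. Mutant replicate 2 itself, with 113 counts for *Myo16* and 3819 for *Myo5a*, lay above every wild-type embryo for both genes. That embryo, like mutant replicate 6, was also high in summed parietal endoderm markers, at 115155 against 64438 to 79240 in wild type.

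The other cargo myosins showed no called difference. *Myo5b*, which carries recycling endosomes to the apical surface of epithelia, had 1502 ± 147 normalized counts in wild type and 1461 ± 223 in mutants. *Myo5c*, its relative in glands, had 274 ± 39.5 and 265 ± 49.6. *Myo6*, which alone walks towards the minus end of actin and serves in endocytosis, was the highest of these 4 genes per kb of exon. Its counts were 6686, 6821, 6762, 6162 and 5545 in wild type and 7991, 6843, 6279, 5272 and 7506 in the mutants. The ranges overlapped, with the mutants more widely spread. For these 3 uncalled genes the log2 fold changes ran from −0.056 to 0.073 (limma, adjusted p from 0.77 to 0.89).

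**Figure D2:**
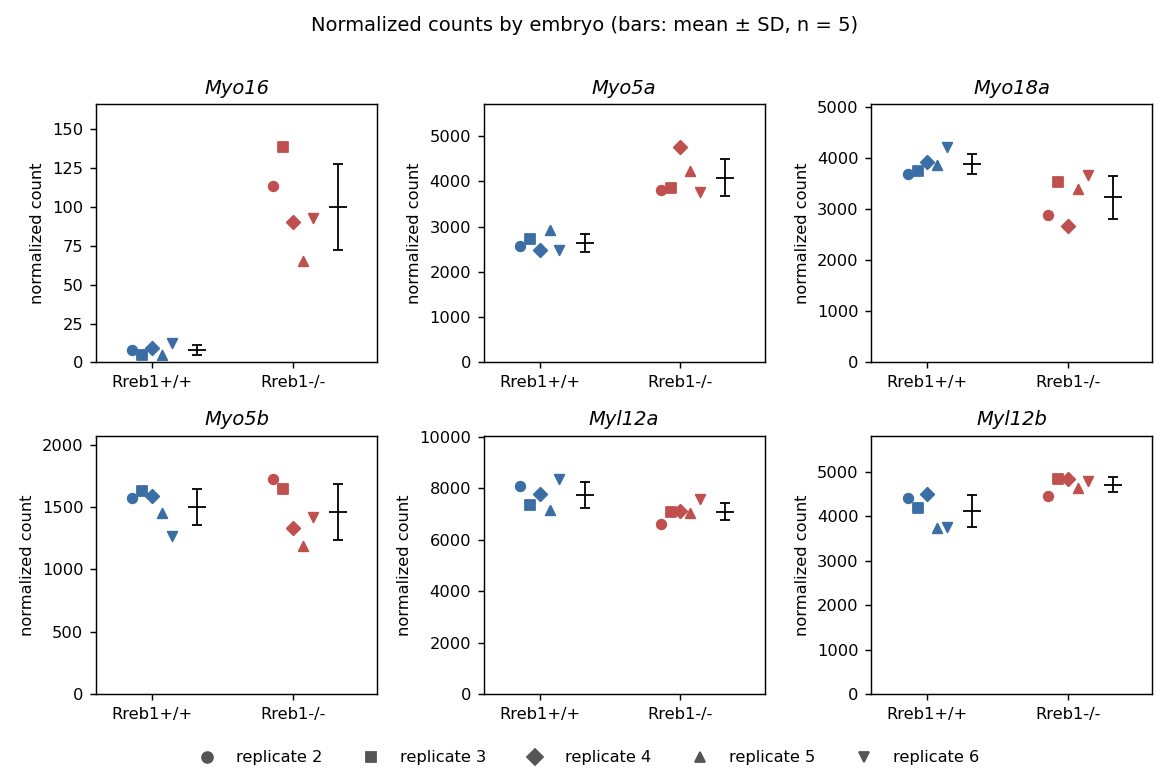
Normalized counts (y axis, from 0) of *Myo16*, *Myo5a*, *Myo18a*, *Myo5b*, *Myl12a* and *Myl12b* in each embryo by genotype, with a symbol for each replicate number and a bar for the mean ± SD of 5 embryos. The genotypes are apart for *Myo16* and *Myo5a*, barely apart for *Myo18a* (3684 against 3664), and overlap in the other panels.

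Class IX, XVI, XVIII and XIX myosins other than *Myo16* had log2 fold changes from −0.28 to 0.38, with 0 of 5 called (limma, adjusted p from 0.125 to 0.572). *Myo18a*, which lacks strong motor activity and helps to shape the Golgi, was the 1 member whose mutant values all lay below wild type. Its counts were 3684, 3749, 3921, 3864 and 4212 in wild type and 2886, 3532, 2677, 3398 and 3664 in the mutants. The highest mutant value was close to the lowest wild-type value, and the log2 fold change of −0.27 (SE 0.09) did not pass (adjusted p = 0.125 by limma, or 0.0645 after blocking on replicate number). Among all genes tested, 2.46% did not overlap with the mutants lower. With the mutants higher, 2 members, *Myo16* and *Myo5a*, did not overlap, and 4.24% of all genes did not. *Myo19*, which moves mitochondria, had 1694 ± 161 against 1394 ± 155 (adjusted p = 0.131 by limma, or 0.0778 with the block). *Myo18b*, known from muscle, had 14.8 ± 3.17 against 19.5 ± 3.82. *Myo9a*, of class IX, had 1766 ± 139 against 1915 ± 147. *Myo9b* counts were 2494, 3118, 2949, 3157 and 2912 in wild type and 2206, 3036, 2714, 2893 and 2706 in the mutants, which overlapped over most of their range.

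The nonmuscle class II heavy chains were among the most abundant members. *Myh9* encodes the heavy chain of nonmuscle myosin IIA, which the early mouse embryo needs to form an ordered visceral endoderm, and *Myh10* that of IIB. Wild-type replicates 2 to 6 had 17931, 19174, 20181, 19368 and 20173 normalized counts of *Myh9*. The mutants had 13379.9, 20224, 13599.5, 18109 and 17996. Mutant replicates 2 and 4 were below every wild-type embryo, mutant replicate 3 was the highest embryo of all, and the log2 fold change of −0.24 (SE 0.11) did not pass (limma, adjusted p = 0.297). *Myh10* had 12056 ± 1273 in wild type and 10584 ± 1715 in mutants (limma, adjusted p = 0.379, and 0.0902 with the block). *Myh14*, the heavy chain of IIC, stayed under the minimum at 11.2 ± 2.65 and 7.82 ± 2.42. Per kb of exon, *Myh9* made up 56.5% ± 2.83 of the 3 chains in wild type and 55.9% ± 3.88 in mutants (SD, n = 5 each).

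The light chains that join them were abundant as well. The regulatory chains *Myl12a*, *Myl12b* and *Myl9* summed to 4123 ± 217 normalized counts per kb in wild type and 4187 ± 253 in mutants, and the essential chains *Myl6* and *Myl6b* to 2179.6 ± 161 and 2248 ± 242. The 3 heavy chains summed to 2652 ± 136 and 2302 ± 351. The divisor was all annotated exon bases of a gene, 3187 for *Myl6* and 12928 for *Myh9*. Their coding sequences hold 477 and 5883 bases. Levels and sums per kb therefore do not give the proportions of the chains. Single genes of highest level per kb in wild type were *Myl12a* (2305 ± 152), *Myl6* (2119.6 ± 161), *Myh9* (1498 ± 71.5) and *Myl12b* (1487 ± 129). The SDs of the first pair overlapped, as did those of the second. *Myl6* counts were 6898, 6086, 6842, 6487 and 7464 in wild type and 6308, 6856, 6309, 7235 and 8134 in the mutants. They overlapped, with a log2 fold change of 0.041 (SE 0.08; limma, adjusted p = 0.836). *Myl6b* had 111 ± 20 in wild type and 114 ± 24.9 in mutants. *Myl9* ranged from 322 to 419 in wild type and more widely, from 202 to 707, in the mutants.

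**Figure D3:**
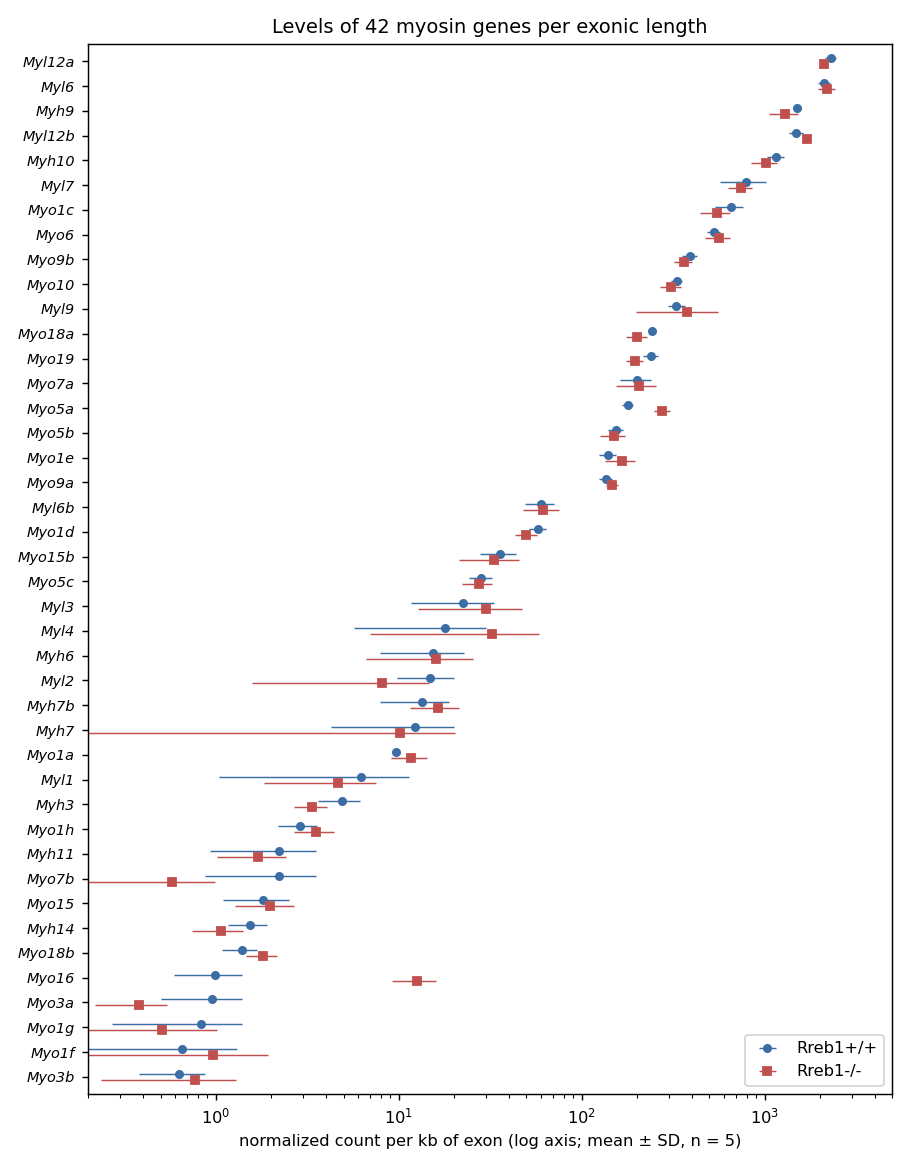
Mean normalized count per kb of exon (x axis, log scale) of 42 of the 43 myosin genes in *Rreb1*+/+ (blue) and *Rreb1*-/- (red) embryos, ordered by the wild-type level, with bars of ± SD (n = 5) that stop at the left edge where they would pass it. The 5 highest genes, nonmuscle light and heavy chains, lie between 1012 and 2305 in both genotypes, and *Myo16* is the 1 gene whose red point stands far to the right of its blue point.

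*Myl12a* and *Myl12b* are neighbours on chromosome 17 and encode nearly the same nonmuscle regulatory light chain. The coding sequences, 519 bases each, were identical at 501 bases (96.5%). Of the 50-base windows of the *Myl12b* transcripts, 8.5% also occurred in those of *Myl12a*, so some reads could not be placed on 1 gene by their own sequence. The first 90 coding bases are shown (GENCODE M21), because they hold the codons of the neighbouring threonine and serine that myosin light chain kinase phosphorylates. Capitals mark the 4 bases that differ.
Myl12b: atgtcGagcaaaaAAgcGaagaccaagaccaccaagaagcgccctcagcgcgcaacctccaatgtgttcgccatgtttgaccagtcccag
Myl12a: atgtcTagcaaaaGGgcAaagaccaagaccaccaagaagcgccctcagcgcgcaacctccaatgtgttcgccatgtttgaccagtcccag
*Myl12a* counts were 8109, 7344, 7763, 7142 and 8368 in wild type and 6617, 7088, 7129, 7051 and 7574 in the mutants. Those of *Myl12b* were 4410.5, 4179, 4509, 3734 and 3767 in wild type and 4453, 4840.1, 4841, 4627 and 4788 in the mutants. The mean of *Myl12a* was lower in the mutants and that of *Myl12b* higher, and the genotypes overlapped for both. Neither passed the test across all genes (log2 fold change −0.13, SE 0.06, adjusted p = 0.287 for *Myl12a* by limma; 0.20, SE 0.06, adjusted p = 0.132 for *Myl12b*).

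The balance between paralogs was compared within each embryo, which does not depend on the scaling between embryos. Of 6 ratios, chosen with earlier results of these data known, 5 had both genes over the minimum. Adjusting p over these 5 does not cover that choice, and the Y-linked covariate was not applied to the ratios. The ratio of *Myl12b* to *Myl12a* was 0.544, 0.569, 0.581, 0.523 and 0.450 in wild type and 0.673, 0.683, 0.679, 0.656 and 0.632 in the mutants. All mutants were above all wild-type embryos, by 0.32 in mean log2 ratio (exact two-sided permutation test, p = 0.00794, adjusted over the 5 ratios 0.0198). The ratio of *Myo5b* to *Myo5a* was 0.497 to 0.638 in wild type and 0.279 to 0.452 in the mutants, lower by 0.67 on the log2 scale (difference −0.67, exact permutation p = 0.00794, adjusted 0.0198), which restates the rise of *Myo5a* against a *Myo5b* level with no called difference. The other ratios gave no called difference. *Myh10* to *Myh9* differed by 0.039 (exact permutation p = 0.754), *Myl6b* to *Myl6* by −0.011 (exact permutation p = 0.937) and *Myo9b* to *Myo9a* by −0.23 (exact permutation p = 0.0952), lower in the mutant in 5 of 5 replicate numbers.

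**Figure D4:**
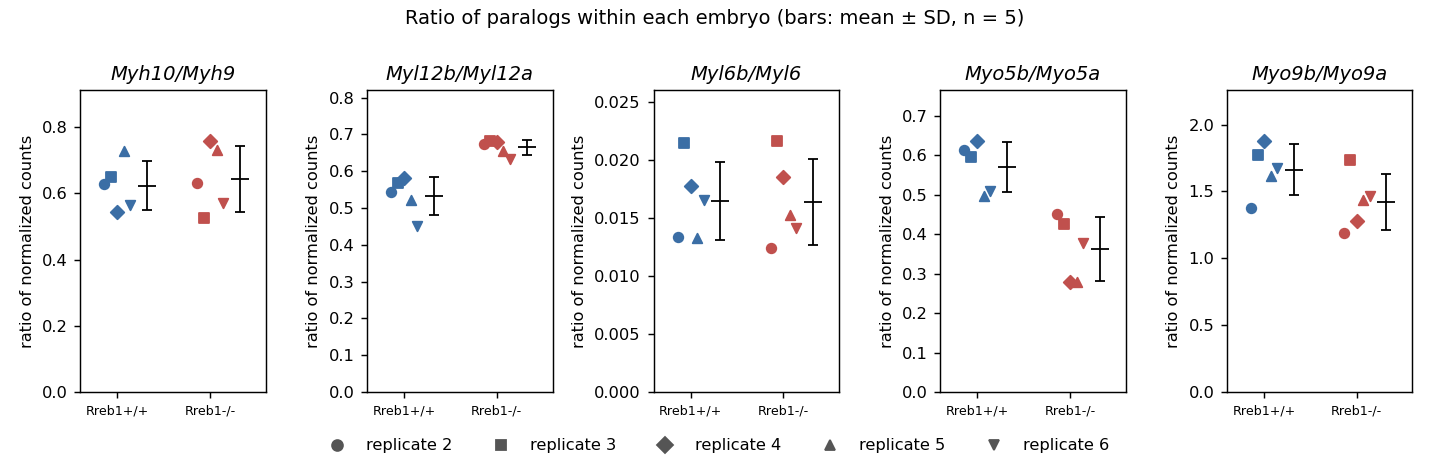
Ratio of the normalized counts of 5 pairs of related genes in each embryo (y axes from 0, with their own scales), by genotype, with a symbol per replicate number and a bar for mean ± SD (n = 5). The mutants lie above wild type for *Myl12b*/*Myl12a* (0.632 to 0.683 against 0.450 to 0.581) and below it for *Myo5b*/*Myo5a*, and the genotypes overlap in the other panels.

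No heart, skeletal or smooth muscle chain was called over all embryos by limma. Among the heart chains *Myl7* had the highest level per kb, 796 ± 225 normalized counts in wild type and 741 ± 112 in the mutants. The other 5 had means from 8.13 to 32.6 per kb. Annotated exons cover 590 bases for *Myl7* and 4637 for *Myl4*, which widens the gap per kb between them. Their mean normalized counts in wild type were 470 and 82.8. *Myh7* and *Myl4* stood higher in replicates 5 and 6 of both genotypes than in the others. *Myh6* and *Myh7* encode the alpha and beta heavy chains of heart muscle, *Myl7* and *Myl4* light chains of the atrium and early heart tube, and *Myl2* and *Myl3* light chains of the ventricle. *Myh6* was the highest of the muscle heavy chains per kb in wild type (15.4 ± 7.47, against 13.4 ± 5.48 for *Myh7b*) but not in the mutants (16.0 ± 9.42 against 16.5 ± 4.93), differences within the SDs. It had 17.3, 114, 142, 135 and 107 normalized counts in wild-type replicates 2 to 6. The mutants had 66.8, 42.6, 88.1, 201 and 141. The ranges overlapped, and the log2 fold change was 0.15 (SE 0.59; limma, adjusted p = 0.923). *Myh7*, *Myl4* and *Myl2* are described after their values were seen. *Myh7* was 53.7, 53.2, 59.2, 188 and 172 in wild type and 13.8, 20.8, 8.50, 203 and 191 in the mutants. Replicates 5 and 6 were high in both genotypes, and in replicates 2 to 4 every mutant was below every wild-type embryo. Over all embryos the log2 fold change of −1.12 (SE 0.88) did not pass (limma, adjusted p = 0.55), and edgeR gave −0.26 (adjusted p = 0.909). Over replicates 2 to 4 alone it was −1.96 (SE 0.34; limma, adjusted p = 0.0234), where *Myh7* was the 1 member called lower and 1.41% of all genes were. In that subset *Myh7* reached the minimum of 15 only in wild type, with means of 55.4 in wild type and 14.4 in the mutants. The gene was also picked after its values were seen, so the call in this subset is a description. Over replicates 5 and 6 alone the log2 fold change was 0.13 (SE 0.18; limma, adjusted p = 0.812). Whether the genotype difference itself differed between these sets of embryos was not tested.

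*Myl4* was 45.1, 29.1, 52.5, 151 and 137 in wild type and 57.2, 79.0, 58.4, 295 and 266 in the mutants. In each replicate number the mutant was above the wild-type embryo, while the genotypes as a whole overlapped, and the log2 fold change was 0.76 (SE 0.60; adjusted p = 0.551 by limma, or 0.0657 with the block). *Myl2* was 20.1, 27.1, 20.1, 43.2 and 34.9 in wild type and 3.18, 10.4, 10.6, 18.6 and 36.5 in the mutants. Of the mutants, 4 were below every wild-type embryo and replicate 6 was not, and the log2 fold change was −1.12 (SE 0.51; limma, adjusted p = 0.273, and 0.091 with the block). *Myl7*, the most abundant of these light chains, ranged from 305 to 671 in wild type and 353 to 526 in the mutants. *Myl3* ranged from 22.1 to 81.0 and from 30.8 to 121, and 95 bases of its annotated exons are shared with the opposite strand gene *Pth1r*. Such overlaps with another gene of the table were found for 8 members, among them *Myl2* (60 bases, *Ccdc63*) and *Myl12a* (207 bases, *Myom1*). *Myl1*, of fast skeletal muscle, was under the minimum, with 12.9 ± 10.7 normalized counts in wild type and 9.71 ± 5.9 in the mutants (SD, n = 5). Of the 50-base windows of the *Myh7* transcripts, 21.2% also occurred in those of the neighbouring gene *Myh6*. A read within such a window could not be placed on 1 gene by its own sequence. The remaining muscle heavy chains *Myh3*, *Myh7b* and *Myh11* of embryonic skeletal, slow and smooth muscle had 29.6 ± 7.68, 89.2 ± 36.3 and 16.9 ± 9.88 normalized counts in wild type. In the mutants they had 20.4 ± 4.22, 109 ± 32.7 and 13 ± 5.31, with log2 fold changes of −0.50, 0.35 and −0.23 (limma, adjusted p from 0.312 to 0.833).

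**Figure D5:**
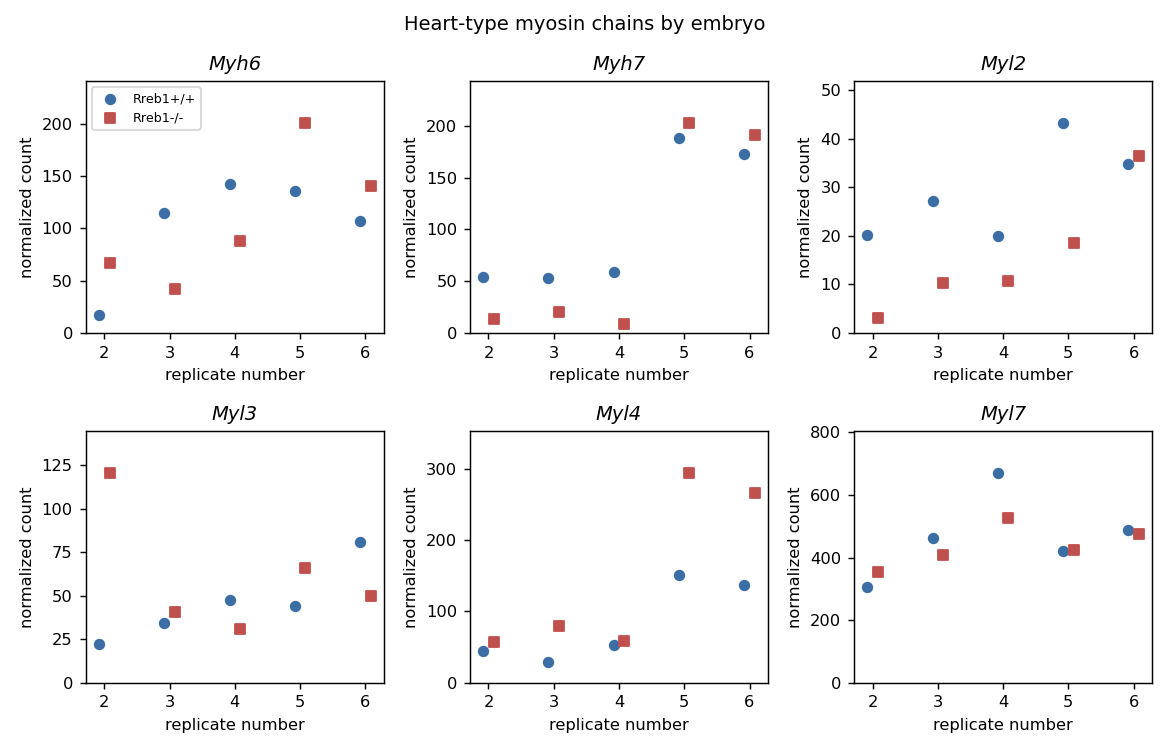
Normalized counts (y axes from 0, with their own scales) of 6 heart-type myosin chains by replicate number (x axis) in *Rreb1*+/+ (blue circles) and *Rreb1*-/- (red squares) embryos, 1 point per embryo. *Myh7* and *Myl4* are highest in replicates 5 and 6 of both genotypes, and the mutants of replicates 2 to 4 lie at 8.50 to 20.8 for *Myh7* against 53.2 to 59.2 in wild type.

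Other markers moved with the replicate number as well. The summed counts of 21 sarcomere genes were 1477 to 1538 in wild-type and 1485 to 1674 in mutant replicates 2 to 4, and 2346 to 2650.5 and 3101 to 3274 in replicates 5 and 6. Summed primitive blood markers were 2195 to 2899 and 992 to 1149.7 in replicates 2 to 4, and 10001 to 14724 and 4690 to 4946 in replicates 5 and 6. Other markers were lower in replicates 5 and 6. Epiblast markers summed to 59589 to 77323 in replicates 2 to 4 of both genotypes and 32378 to 39738 in replicates 5 and 6, and primitive streak and mesoderm markers to 17601 to 25448 and 12223 to 14746. In such whole-embryo RNA, fewer cells of a type and less RNA per cell cannot be told apart. Of the 16 sarcomere genes tested, 1 was called higher and 0 lower, where 3.11% and 1.15% of all genes were. The called gene was *Actn2*, which encodes the sarcomeric alpha-actinin. Its counts were 27.8, 35.1, 58.2, 27.8 and 27.3 in wild type and 60.4, 66.5, 71.1, 68.8 and 79.3 in the mutants. The genotypes did not overlap, as for 4.24% of all genes tested with the mutants higher. The log2 fold change was 1.01 (SE 0.22; limma, adjusted p = 0.0273).

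Class I myosins tie the actin cortex to membranes, and 6 of 8 were tested, with 0 called (limma, log2 fold changes from −0.25 to 0.28). *Myo1c*, the highest per kb, had 4712, 3180.4, 3856, 4875 and 4862 in wild type and 3571, 3038, 2859, 4384 and 4178 in the mutants. In each replicate number the mutant was the lower embryo, while the ranges overlapped (log2 fold change −0.25, SE 0.15, limma adjusted p = 0.411, and 0.0633 with the block). *Myo1e* had 792 ± 82.4 in wild type and 943 ± 177 in the mutants. *Myo1d* had 375 ± 39.7 and 323 ± 44.1, and *Myo1a*, a brush border myosin, 35.8 ± 1.82 and 43.3 ± 9.72. *Myo1h* had 17.1 ± 4.1 and 21.1 ± 5.26. For *Myo1h*, 25.8% of the exonic length is shared with the opposite strand gene *Kctd10*. The library kit was stranded, but whether counting used strand is not given in the sources used here. *Myo1f* and *Myo1g*, known from blood cells, had at most 14.6 normalized counts in any embryo.

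Of the class III myosins and those with tails that bind membranes and microtubules (VII, X and XV), 4 of 7 were tested, with 0 called (limma, log2 fold changes from −0.13 to 0.13, adjusted p from 0.557 to 0.979). *Myo10*, which sits at the tips of filopodia, was the highest per kb. Its counts were 3253, 3624, 3495, 3329 and 3065 in wild type and 3099, 3842, 2819, 2863 and 3001 in the mutants. Apart from mutant replicate 3, the highest embryo of all, the mutants lay at or below the lower part of the wild-type range. *Myo7a*, known from hair cells and the retina, had 1723 ± 340.1 and 1755 ± 427. *Myo15*, needed at the tips of stereocilia, had 23.1 ± 9.04 and 25.2 ± 8.85, and *Myo15b* 353 ± 78.6 and 329.5 ± 119. *Myo3a*, a stereocilia myosin that carries a kinase domain, had 7.55 ± 3.56 and 3.03 ± 1.29, and *Myo3b* 4.43 ± 1.74 and 5.40 ± 3.74. *Myo7b*, a myosin of the brush border, had 4.77 to 23.0 in wild type and 0 to 6.51 in the mutants, under the minimum. In a fit with no minimum none of the 7 members below it was called (limma, adjusted p from 0.192 for *Myo7b* to 0.945 for *Myo3b*).

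A shared sequence feature was looked for in the same RefSeq windows, the CArG box bound by serum response factor (SRF), which drives many contractile genes. On either strand it was found in 5 of 46 member windows (10.9%) and in 1.47% of 32851 windows of all genes. The sites are shown with flanking bases (GRCm38.p6), because they mark which myosin genes share this feature. Capitals mark the CArG box, which begins 85 (*Myl3*), 50 (*Myl6*), 61 (*Myl7*), 161 (*Myl9*) and 32 (*Myo1e*) bases before a RefSeq start. By GENCODE M21 the windows of *Myl3* and *Myl6* with a box lie inside the span of the gene, ahead of an internal start, and the other *Myl6* window held no box.
Myl3 (chr9:110763583-110763612, plus strand): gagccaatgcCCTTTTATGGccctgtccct
Myl6 (chr10:128493040-128493069, minus strand): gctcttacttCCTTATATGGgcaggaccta
Myl7 (chr11:5898824-5898853, minus strand): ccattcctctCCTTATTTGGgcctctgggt
Myl9 (chr2:156775293-156775322, plus strand): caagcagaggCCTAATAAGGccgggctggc
Myo1e (chr9:70207308-70207337, plus strand): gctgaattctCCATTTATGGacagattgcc
None of these 5 genes was called by limma, with log2 fold changes of 0.38 (*Myl3*), 0.041 (*Myl6*), −0.070 (*Myl7*), 0.053 (*Myl9*) and 0.23 (*Myo1e*). *Srf* itself had 2690.0 ± 269 normalized counts in wild type and 2625 ± 385 in mutants. A match of letters does not show that the factor binds there.

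Genes that act with myosin were counted from 5 lists, of light chain kinases and phosphatase with their regulators, folding factors and thick filament partners, cargo adaptors, actins and tropomyosins, and sarcomere genes. Of 106 genes tested, 1 was called higher, *Actn2*, and 0 lower (limma). At an unadjusted p under 0.05, 10 were higher and 14 lower. These counts stand beside 3.11% and 1.15% of all genes called, and 9.74% and 8.21% at an unadjusted p under 0.05. With the replicate block, 3 were called higher (*Actn2*, *Calm2* and *Rab27a*) and 4 lower (*Arhgef11*, *Unc45a*, *Cdhr5* and *Actn1*), where 4.59% and 2.28% of all genes were. All of these but *Actn2* are named after their values were seen. *Rab27a*, the Rab protein that recruits myosin Va to melanosomes, had 257 ± 31.5 in wild type and 402 ± 98.8 in mutants. *Unc45a*, a chaperone that folds myosin heads, had 1480.4 ± 188 and 1041 ± 268. The median log2 fold changes of the 5 lists were −0.075, −0.17, 0.024, −0.12 and 0.11 in the order above, beside −0.016 over all genes.

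*Rreb1* counts, which cover all exons and so do not test for the deletion, were 2365 to 2924 in wild type and 3988 to 5715 in mutants. Markers of epiblast, mesoderm, visceral endoderm and extraembryonic ectoderm were present in every embryo. By limma, 1 of 12 visceral endoderm (*Afp*, lower), 1 of 10 extraembryonic ectoderm (*Esx1*, lower) and 1 of 10 parietal endoderm markers (*Plat*, higher) were called. Of all genes, 3.11% were called higher and 1.15% lower. Of 10 primitive blood markers 0 were called, with a median log2 fold change of −1.35. With the replicate block 4 of these were called lower and 0 higher, where 2.28% and 4.59% of all genes were. Summed parietal endoderm markers were 115155 and 134180 in mutant replicates 2 and 6, against 61378 to 79240 in all other embryos. The part of other cell types in the myosin values was not tested.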

How the data were processed

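RNA-sequencing of single E7.5 embryos was analysed. The authors aligned reads with STAR, sorted them with Picard, counted reads on genes with HTSeq and scaled the counts with DESeq, and the deposited signal is a count divided by 1 size factor per embryo. In every embryo the values were whole multiples of 1 step (tolerance 0.1 read), and these reads gave the depth and the input of edgeR 4.0.16 and DESeq2 1.42.0. Per the study's methods the libraries were made with a stranded kit. For the genome build, the gene models and the use of strand in counting, the authors' choices were not given in the sources used here. Gene positions and exon lengths came from GENCODE M21 (GRCm38) by gene identifier (43 of 43 members), promoter windows from RefSeq. Exon length was the number of bases covered by any annotated exon of the gene, not the length of 1 transcript.

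Genotypes were compared with limma 3.58.1 in R 4.3.3 (variance trend, pseudocount 1, mean of at least 15 in a genotype, Benjamini-Hochberg over 15603 genes). The procedure was also run on simulated counts with the same dispersion for every gene and no sex or replicate structure. That run checked the code and does not test the calls made here. Each of the 5 embryos per genotype is a separate sample. Ratios were compared with exact permutation tests over 252 arrangements. Embryos of the same replicate number deviated together (correlations 0.253 to 0.459 over genes, all 5 pairs over 0.1). The number from the titles was therefore also used as a block. Only 2 of 5 wild-type and 1 of 5 mutant embryos resembled their own number best. What the number means is not given in the labels, so the block and the comparisons within replicate numbers do not rest on known pairs. Values per embryo were given for members called, for those that did not overlap and for the highest per kb in each role, and for the others named in the text after their values were seen. The members, lists and tests were chosen with earlier results of these data known. Other alternatives were TMM scaling, pseudocounts, filters, the Y-linked covariate, subsets of replicates and leaving out each embryo. The values of 1 tested member are not reported here.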

Additional observations from a re-analysis of the deposited data

Results flagged for a closer look

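Within a genotype, 4 of 82 groups of 5 embryos (36 members and 5 ratios in each genotype) held an embryo far from the others, by a gap past Dixon's critical value, which chance passes in about 1 of 20 groups. *Myo10* was high in mutant replicate 3, at 3842 normalized counts against 2819 to 3099 in the other mutants. *Myo18b* was high in the same embryo, at 26.0 against 15.9 to 18.8. *Myh6* was low in wild-type replicate 2, at 17.3 against 107 to 142. *Myo1d*, a class I myosin, was low in wild-type replicate 5, at 304 against 384 to 398. The cause was not tested.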

How the results depend on the processing

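The 2 calls, *Myo16* and *Myo5a*, remained when any embryo was left out (2 members higher and 0 lower each time), and under TMM scaling, edgeR, DESeq2, other pseudocounts and filters and the replicate block, which changed no member's call. With pseudocount 10 the log2 fold change of *Myo16* was 2.60. With the Y-linked covariate 1 member was called higher (*Myo16*), *Myo5a* being at 0.52 (adjusted p = 0.126). Over replicates 5 and 6 alone 0 were, with *Myo16* at 3.17 (limma, adjusted p = 0.0615) and *Myo5a* at 0.56 (adjusted p = 0.131), in a fit of fewer embryos. Over replicates 2 to 4 alone 1 was called lower (*Myh7*, −1.96, limma adjusted p = 0.0234), and over replicates 5 and 6 *Myh7* was 0.13. That call is a description, because *Myh7* reached the minimum there only in wild type. Some uncalled differences moved. With the covariate *Myh7* was −2.61, *Myl2* −2.80 and *Myh9* −0.53 (limma, adjusted p = 0.363, 0.113 and 0.174). Without 1 embryo *Myh7* ran from −1.70 (without mutant replicate 5) to −0.59 (without mutant replicate 4) and *Myl2* from −1.50 (without mutant replicate 6) to −0.71 (without mutant replicate 2). Some small differences changed sign. *Myh6* was −0.44 with the Y-linked covariate, −0.066 over replicates 2 to 4 and −0.40 to 0.43 without 1 embryo, with the lowest value without wild-type replicate 2. *Myl6* was −0.098, −0.025 and −0.016 to 0.078 in the same order, and *Myl4* was −0.31 with the covariate. The ratio *Myh10*/*Myh9* ran from −0.024 to 0.11 and *Myl6b*/*Myl6* from −0.12 to 0.089 without 1 embryo. With the replicate block (paired sign flips, smallest p 0.0625) the ratios *Myl12b*/*Myl12a* (0.32) and *Myo5b*/*Myo5a* (−0.67) could not reach the threshold (adjusted p = 0.104, exact), nor over replicates 2 to 4 (0.27 and −0.70, adjusted p = 0.25, exact permutation, smallest 0.1). Without 1 embryo both passed, at 0.26 to 0.35 and −0.76 to −0.59 (adjusted p = 0.0397, exact permutation). Members under a mean of 15 were left out by choice, and only 1 mutant embryo separates genotype from sex.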
